A study of Mus musculus with 7 samples.

Results

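A set of 40 genes of monocytes and macrophages was measured in the mouse femur after a traumatic brain injury (TBI). The set was given as a list of symbols, and all 40 were found among the 49671 genes of the count table. By the known place of each gene they were read as 9 monocyte genes, 10 genes shared by monocytes, macrophages and other myeloid cells, 15 tissue macrophage genes and 6 genes of red-pulp-like macrophages. Monocytes and macrophages are phagocytes that arise in the bone marrow or from embryonic precursors, and many of them depend for survival on the receptor encoded by Csf1r. Classical monocytes carry Ly6C and leave the marrow for the blood, while the patrolling kind carries little Ly6C and needs the nuclear receptor Nr4a1. Macrophages settled in marrow and bone clear dying cells and the nuclei shed by erythroblasts, and those that recycle iron from red cells, as in the splenic red pulp, depend on the transcription factor Spi-C.

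RNA came from whole femurs of wild-type mice, in a group of 4 libraries taken 3 days after controlled cortical impact (a rod driven into the exposed cortex) and a group of 3 libraries from uninjured controls. The bone was crushed whole, so each library mixes marrow, bone, cartilage and any muscle or fat left attached. The labels give no strain, age or batch and do not state that every library is its own mouse. The p-values therefore cover only the spread seen among these 7 libraries. The labels also do not say whether the control mice had the skull opened, so surgery and impact cannot be told apart. Total counts were 20470241 to 21783534 in the TBI libraries and 15461528 to 20675655 in the controls. Values are reads per 1e6 counted (CPM) after TMM scaling. Log2 fold changes (TBI over control) come from edgeR's quasi-likelihood test, each with its standard error (SE).

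None of the 40 genes passed the threshold of 0.05 after Benjamini-Hochberg adjustment over all 17144 genes tested in edgeR, and 0 of all tested genes did (0.0%). Of the 39 that passed the low-count filter, 22 had a higher estimate and 17 a lower one after TBI, and across all genes tested 54.4% had an estimate above 0. The median log2 fold change was 0.13 (quartiles −0.15 and 0.48), and over all genes tested it was 0.026 (quartiles −0.15 and 0.21). At an unadjusted p under 0.05 the test held 1 higher member (Fcgr1) and 1 lower member (Gpnmb), where 2.37% of all tested genes were higher and 4.97% lower (7.34% in either direction). DESeq2 called 84 genes (0.568% of those with an adjusted p) and 0 members. In that tool 4 members had an unadjusted p under 0.05, against 5.22% of all genes (Fcgr1, Fcgr4 and Ly6c2 higher, Gpnmb lower). The edgeR count of members at an unadjusted p under 0.05 was 10 higher and 2 lower without TBI 3 (8.98% of all genes), and 13 higher and 2 lower with the muscle marker mean as a covariate (16.2%). It was 2 higher and 5 lower with the neutrophil marker mean as a covariate (14.6%), and 3 higher and 4 lower with the interferon-induced mean (17.1%). It was 0 in both directions without control 2 (3.36%) and without control 3 (5.67%). In whole bone, more cells of a type and more RNA per cell cannot be told apart. The estimates by role are drawn in the plot of fold changes with their standard errors.

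**Figure D1:**
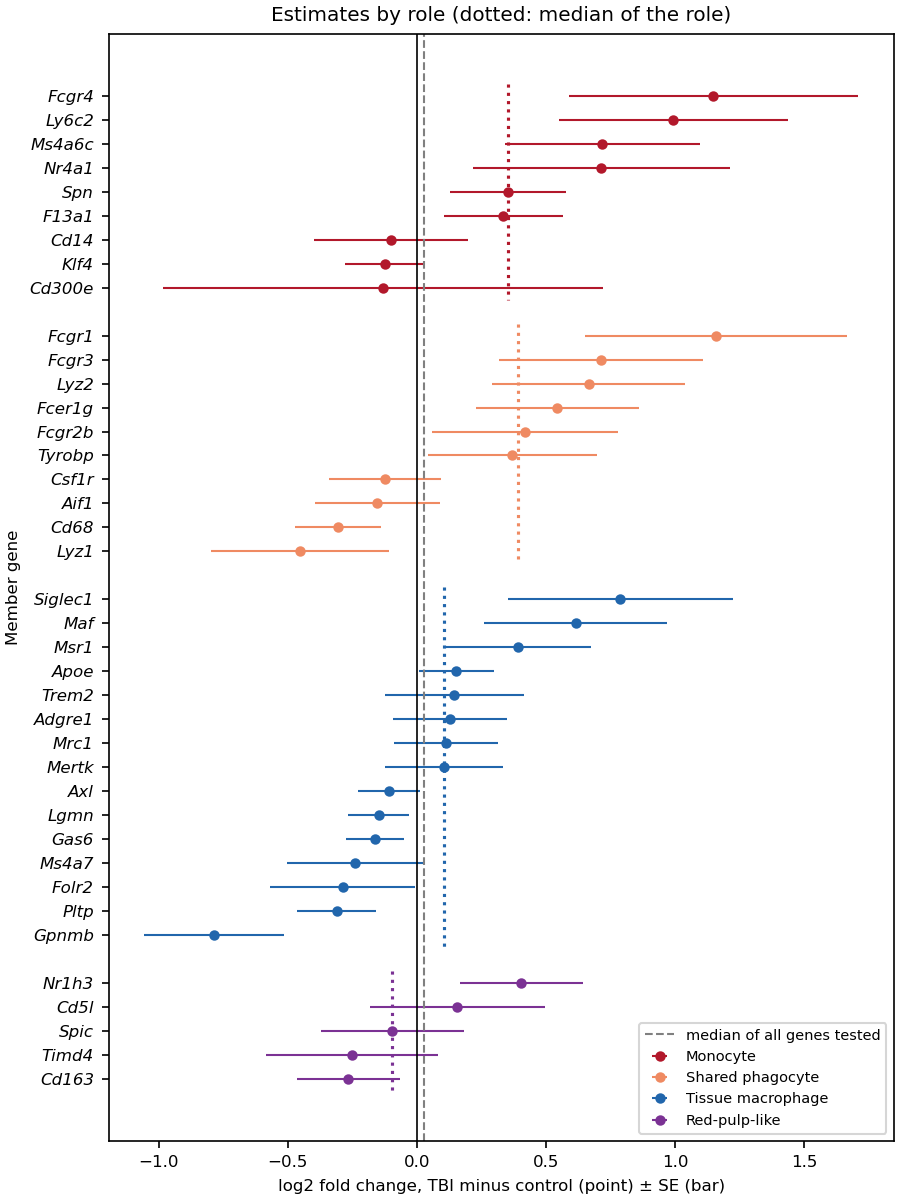
Log2 fold change of the 39 tested members, TBI minus control, with the SE from edgeR as bars, ordered within each role. Dotted lines mark the median of each role (monocyte 0.35, shared phagocyte 0.39, tissue macrophage 0.11, red-pulp-like −0.095) and the dashed line that of all genes tested (0.026).

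The 4 roles differed in how far the mean over their genes spread among the TBI libraries. For the 9 monocyte genes the median was 0.35 in log2 fold change (6 higher, 3 lower), and for the 10 shared phagocyte genes 0.39 (6 higher, 4 lower). The median for the 15 tissue macrophage genes was 0.11 (8 higher, 7 lower), and for the 5 tested red-pulp-like genes it was −0.095 (2 higher, 3 lower). As a mean over its genes, the monocyte list measured 4.54 ± 0.51 in TBI libraries (SD, n = 4) and 4.26 ± 0.20 in controls (SD, n = 3), in log2 CPM. The shared list stood at 5.22 ± 0.54 in TBI libraries (SD, n = 4) and 5.02 ± 0.10 in controls (SD, n = 3), also as a mean log2 CPM. The tissue macrophage list was at 4.44 ± 0.11 in TBI libraries (SD, n = 4) and 4.45 ± 0.019 in controls (SD, n = 3), and the red-pulp-like list at 2.38 ± 0.23 in TBI libraries (SD, n = 4) and 2.40 ± 0.14 in controls (SD, n = 3). In the first 2 of these lists the SD among TBI libraries exceeded the difference between the group means, and in the last 2 the group means were within 0.05 of each other. For the monocyte list this comparison depends in part on Cd300e, which counts as much as any other gene in the mean. Cd300e had 5 and 0 counts in TBI 3 and TBI 4, or −1.09 and −2.99 in log2 CPM relative to the control mean. A small SD of a list mean does not show that the single genes were alike among libraries. In TBI 1, for example, the tissue macrophage genes Siglec1 and Gpnmb stood at 1.74 and −1.53 in log2 CPM relative to the control mean. No test of the difference between roles was made.

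The TBI libraries stood in a common order for many members. Per library, the monocyte list had a mean log2 CPM of 5.17, 4.74, 4.08 and 4.18 in TBI 1 to 4, against 4.44, 4.05 and 4.30 in controls 1 to 3. Single genes weigh heavily in the TBI 4 value. Relative to the control mean, Cd300e (0 counts in TBI 4) stood there at −2.99 in log2 CPM and Nr4a1 at 1.79. The place of TBI 4 among the controls in the monocyte list therefore depends on Cd300e, a gene near the limit of detection. The shared list had 5.88, 5.36, 4.59 and 5.07 in TBI 1 to 4, against 5.13, 4.997 and 4.92 in controls 1 to 3. TBI 1 and TBI 2 lay above every control in both lists, while TBI 3 lay below every control in the shared list. TBI 1 was the highest of the TBI libraries for 24 of 39 members, against 34.0% of all genes tested, and TBI 3 the lowest for 22 of 39, against 25.6%. For 15 of 39 members the TBI libraries ran in the order 1, 2, 4, 3 from high to low, an order found in 11.0% of all genes tested. It held for 5 of 9 monocyte genes, 7 of 10 shared genes, 3 of 15 tissue macrophage genes and 0 of 5 red-pulp-like genes.

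**Figure D2:**
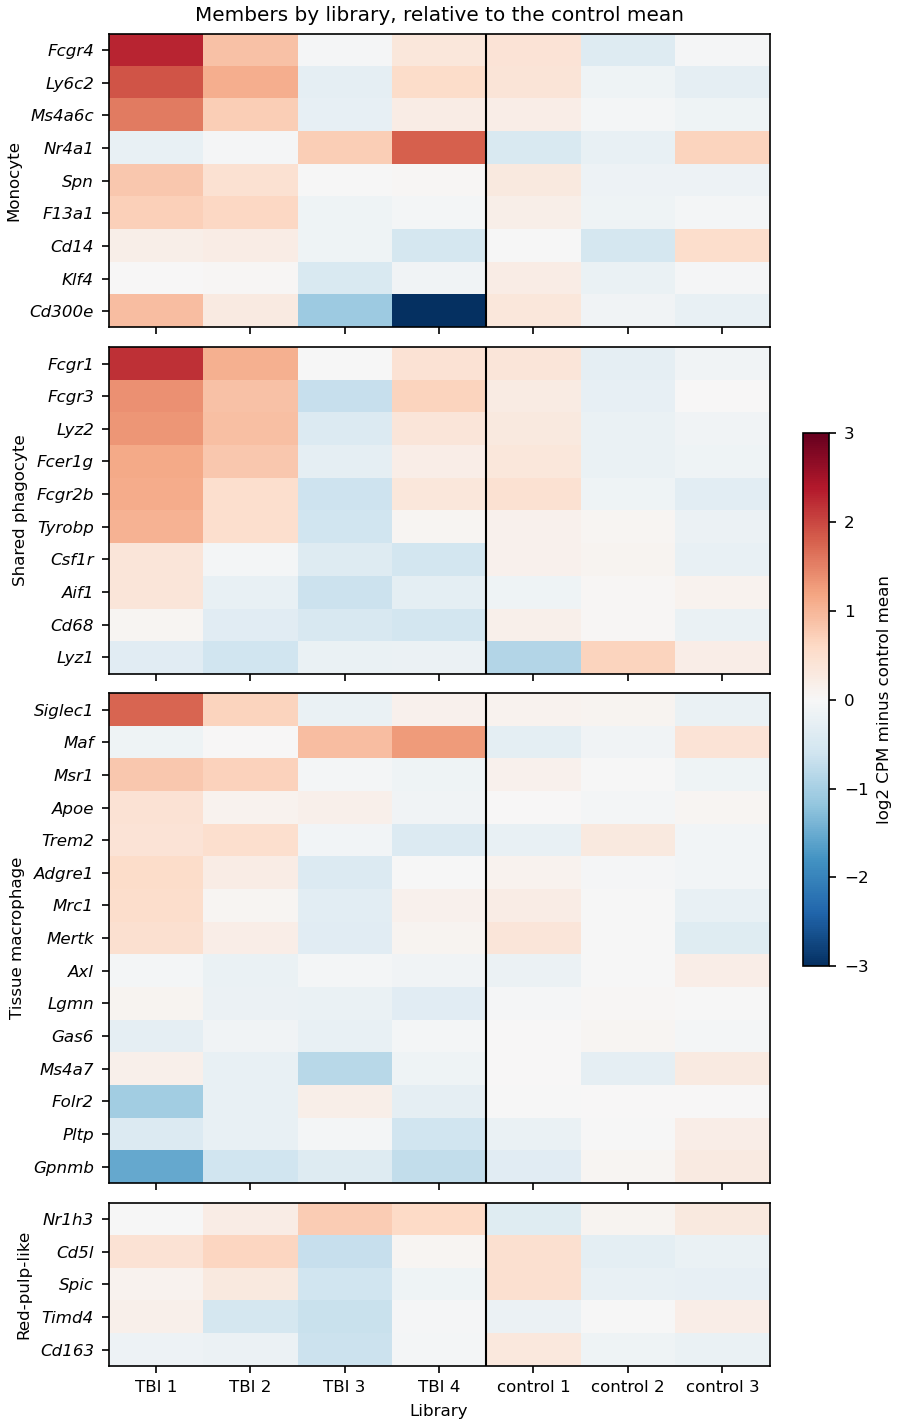
Each row is a tested member and each column a library; colour shows log2 CPM minus the mean of the 3 controls, with the roles in separate panels. TBI 1 is the highest TBI library for 6 of 9 monocyte genes and 9 of 10 shared phagocyte genes. Of the 39 members, 5 have their highest TBI value in TBI 3 and 5 in TBI 4, Nr4a1, Maf and Nr1h3 among them.

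Lists of other cells moved with the same libraries. The 16 neutrophil markers, among them Ly6g, Mmp8 and S100a8, had a mean log2 CPM of 8.76, 8.14, 6.34 and 7.85 in TBI 1 to 4, against 7.47, 6.86 and 6.84 in controls 1 to 3, and 13 of the 16 showed the order 1, 2, 4, 3. Their summed level was 2743 to 14029.6 CPM in TBI libraries and 3883 to 5831 CPM in controls. The 10 interferon-induced genes had a mean log2 CPM of 6.28, 5.10, 4.17 and 4.48 in TBI 1 to 4, against 4.42, 4.27 and 4.44 in controls 1 to 3, and all 10 showed that order. Their summed level was 441 to 1401 CPM in TBI libraries and 532 to 687 CPM in controls. The mean log2 CPM of dendritic cell markers also ran in that order (4.23, 3.85, 3.00 and 3.29 in TBI 1 to 4). So did that of eosinophil, basophil and mast cell markers (2.48, 1.96, 1.30 and 1.62). The means of T and NK cell markers and of B cell markers were also highest in TBI 1 and lowest in TBI 3. Those of fat and endothelial markers were highest in TBI 3. Neutrophils themselves express several members, among them Lyz2, Tyrobp, Fcer1g, Fcgr3 and Spn, as do other blood cells. The part of neutrophils, of other blood cells and of the interferon-induced genes in the member values was not tested. The 10 muscle markers, such as Acta1 and Ckm, ran the other way, with a mean log2 CPM of 10.65, 11.34, 12.55 and 12.92 in TBI 1 to 4, against 10.43, 11.39 and 12.11 in controls 1 to 3 and a summed level of 20433 to 106387 CPM in TBI libraries and 17226 to 58406 CPM in controls. No marker on the neutrophil, interferon-induced and muscle lists was at 0 in every library.

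**Figure D3:**
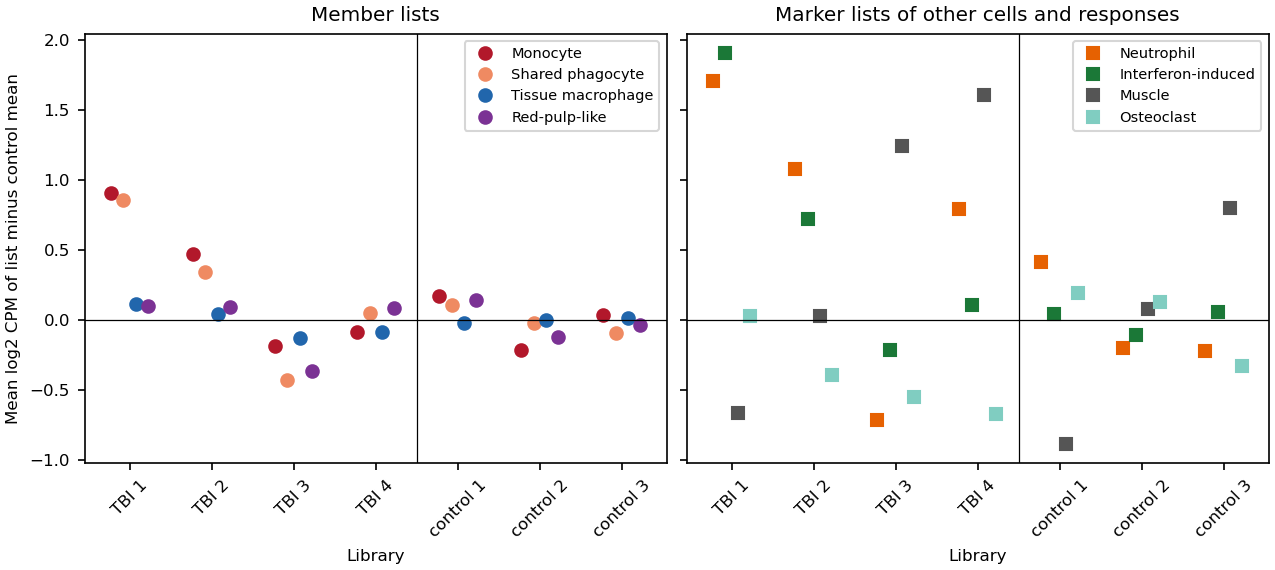
Mean log2 CPM of each list minus the mean of the 3 controls, per library, for the 4 member lists (left) and for neutrophil, interferon-induced, muscle and osteoclast lists (right). Monocyte and shared phagocyte points are highest in TBI 1, as are the neutrophil and interferon-induced points, while the muscle points are highest in TBI 4.

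Among the monocyte genes, Ly6c2 encodes the Ly6C antigen of classical monocytes (ENSMUSG00000022584, chromosome 15, 75108158 to 75111970, minus strand, on GRCm38). It measured 261, 152, 59.3 and 103 CPM in TBI 1 to 4, against 92.9, 64.9 and 59.3 CPM in controls 1 to 3. TBI 1, 2 and 4 lay above every control, and TBI 3 lay within the control range, so the groups overlapped. The log2 fold change was 0.99 ± 0.44 (SE), with an adjusted p of 0.683 in edgeR, and without TBI 1 it was 0.54. The TBI order of Ly6c2, 1, 2, 4, 3, was that of 13 of the 16 neutrophil markers, whose part in it was not tested. Ly6c1, a near-identical neighbour that blood vessel cells express and no member of the set, measured 37.9, 42.9, 66.3 and 56.9 CPM in TBI 1 to 4, against 39.8, 52.1 and 57.4 CPM in controls 1 to 3. Its TBI libraries ran in another order than those of Ly6c2, although reads of the pair may have been split between them.

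F13a1, which encodes a chain of clotting factor XIII that classical monocytes express, measured 202, 187, 113 and 119 CPM in TBI 1 to 4, against 139, 112 and 118 CPM in controls 1 to 3. TBI 1 and TBI 2 were above the controls and TBI 3 and TBI 4 near them, with a log2 fold change of 0.33 ± 0.23 (adjusted p = 0.763 in edgeR) that was 0.18 without TBI 1 and 0.22 without TBI 2. Ms4a6c, a membrane protein of the MS4A family found on monocytes, measured 89.97, 51.6, 25.6 and 35.6 CPM in TBI 1 to 4, against 34.98, 29.4 and 28.05 CPM in controls 1 to 3. Its log2 fold change was 0.72 ± 0.38, and 0.29 without TBI 1. Ccr2, the chemokine receptor by which classical monocytes leave the marrow, is not among the 40 and measured 139.9, 131, 69.1 and 84.6 CPM in TBI 1 to 4, against 79.4, 67.6 and 64.1 CPM in controls 1 to 3. It was the only one of 16 other monocyte genes with an unadjusted p under 0.05 in edgeR (0.59 ± 0.25, adjusted p = 0.67), and TBI 3 lay within the control range.

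Patrolling, Ly6C-low monocytes express Nr4a1, Spn, Cd300e and Fcgr4, but a place in the monocyte list does not make a gene specific to monocytes. Spn, for example, is also expressed by neutrophils, as stated above. Nr4a1, the nuclear receptor that patrolling monocytes need and that muscle also makes, measured 48.01, 54.2, 92.3 and 192 CPM in TBI 1 to 4, against 40.7, 47.9 and 88.2 CPM in controls 1 to 3. TBI 4 and TBI 3 were above every control, control 3 came next, and TBI 1 and TBI 2 lay within the control range. TBI 4, TBI 3 and control 3 were also the libraries highest in muscle markers. The log2 fold change was 0.71 ± 0.50 (adjusted p = 0.763 in edgeR), and it was 0.14 without TBI 4 and 1.13 without control 3. The part of muscle RNA in it was not tested. Spn, which encodes the sialoglycoprotein CD43, measured 113, 88.5, 64.3 and 65.98 CPM in TBI 1 to 4, against 79.4, 57.8 and 57.97 CPM in controls 1 to 3, with a log2 fold change of 0.35 ± 0.22 (0.17 without TBI 1). Cd300e, an activating receptor of mature monocytes, was near the limit of detection with 32, 20, 5 and 0 counts in TBI 1 to 4, against 20, 10 and 11 counts in controls 1 to 3. A count of 0 in TBI 4 allows up to 0.138 CPM before TMM scaling, counting error only, and the log2 fold change of −0.13 ± 0.85 depends on these few counts (−0.84 to 0.26 with each library left out in turn).

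Fcgr4, an activating Fc receptor for IgG that Ly6C-low monocytes carry (ENSMUSG00000059089, chromosome 1, 171018920 to 171029761, plus strand), measured 13.03, 4.90, 2.55 and 3.32 CPM in TBI 1 to 4, against 3.52, 1.95 and 2.55 CPM in controls 1 to 3. TBI 1 was above every other library by a wide margin, TBI 2 was next, and TBI 3 and TBI 4 lay within the control range. Its log2 fold change was 1.15 ± 0.56 (adjusted p = 0.709 in edgeR) and was 0.42 without TBI 1. The TBI order of Fcgr4, 1, 2, 4, 3, was likewise that of 13 of the 16 neutrophil markers, whose part in it was not tested. Klf4, a transcription factor for monocyte formation that other cells use too, had 28.96 to 40.7 CPM in TBI libraries and 34.9 to 46.4 CPM in controls and a log2 fold change of −0.12 ± 0.16 (−0.21 to −0.0043 with each library left out). Cd14, the co-receptor for bacterial lipopolysaccharide, had 2.90 to 4.90 CPM in TBI libraries and 2.90 to 6.10 CPM in controls and a log2 fold change of −0.10 ± 0.30 (−0.32 to 0.21 likewise). Groups overlapped for both genes.

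Fc receptors bind the constant part of antibodies, and Fcgr1 and Fcgr3 had the highest estimates of the shared phagocyte genes. Fcgr1, the high-affinity receptor for IgG (ENSMUSG00000015947, chromosome 3, 96282909 to 96293969, minus strand), measured 17.4, 7.96, 3.74 and 5.06 CPM in TBI 1 to 4, against 4.87, 3.09 and 3.49 CPM in controls 1 to 3. TBI 1 and TBI 2 exceeded every control, TBI 4 lay just above them, and TBI 3 lay within the control range. The group means were 8.53 ± 6.15 CPM in TBI libraries (SD, n = 4) and 3.82 ± 0.936 CPM in controls (SD, n = 3). The log2 fold change of 1.16 ± 0.51 had an adjusted p of 0.679 in edgeR, and it was 0.55 without TBI 1. Fcgr3, a low-affinity activating receptor, measured 58.6, 41.5, 14.1 and 35.9 CPM in TBI 1 to 4, against 26.8, 18.98 and 22.99 CPM in controls 1 to 3. TBI 3 was the lowest of all 7 libraries, the other TBI libraries were above every control, and the log2 fold change was 0.71 ± 0.40 (0.42 without TBI 1). Fcgr2b, the inhibitory receptor of the family, which B cells also carry, had 21.2 to 70.1 CPM in TBI libraries and 26.01 to 44.3 CPM in controls and a log2 fold change of 0.42 ± 0.36 (0.11 without TBI 1, 0.65 without TBI 3 and 0.68 without control 1). Fcgr2b, Fcgr3 and Fcgr4 lie on chromosome 1 and resemble each other in part of their coding sequence, so some reads could have been assigned to either.

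The promoters of the 3 members with the highest estimates and of the member with the lowest are shown. Each is the 250 bases before the start site in RefSeq on GRCm38.p6, 5′ to 3′ on the gene's strand, and matches are in capitals. The first sequence listed for Ly6c2, which has 2 start sites in that table, was taken.
Fcgr1 (chr3:96293970-96294219, minus strand): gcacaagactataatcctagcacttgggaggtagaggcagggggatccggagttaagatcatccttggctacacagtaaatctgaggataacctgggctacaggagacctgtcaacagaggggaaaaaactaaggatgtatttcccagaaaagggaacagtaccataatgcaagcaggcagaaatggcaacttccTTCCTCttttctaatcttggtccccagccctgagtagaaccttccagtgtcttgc
Fcgr4 (chr1:171018676-171018925, plus strand): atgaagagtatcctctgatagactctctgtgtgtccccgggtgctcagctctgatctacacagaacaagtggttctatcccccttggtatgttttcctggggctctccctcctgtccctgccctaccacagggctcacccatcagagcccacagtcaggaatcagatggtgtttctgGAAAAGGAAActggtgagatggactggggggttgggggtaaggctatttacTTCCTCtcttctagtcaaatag
Ly6c2 (chr15:75111972-75112221, minus strand): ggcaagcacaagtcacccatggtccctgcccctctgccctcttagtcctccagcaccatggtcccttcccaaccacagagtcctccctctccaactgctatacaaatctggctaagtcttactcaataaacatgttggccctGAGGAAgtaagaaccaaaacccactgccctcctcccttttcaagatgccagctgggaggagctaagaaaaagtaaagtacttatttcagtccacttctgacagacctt
Gpnmb (chr6:49036268-49036517, plus strand): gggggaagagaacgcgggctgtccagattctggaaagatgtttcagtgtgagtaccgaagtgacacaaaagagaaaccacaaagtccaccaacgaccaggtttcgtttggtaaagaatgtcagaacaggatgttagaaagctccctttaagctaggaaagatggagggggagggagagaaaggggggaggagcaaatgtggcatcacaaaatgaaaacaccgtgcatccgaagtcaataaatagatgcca
The letters shown, searched on both strands, were GAGGAA (core of the site bound by PU.1, the factor that specifies myeloid cells), GAAA repeated after a gap of any 2 bases (core of the interferon-stimulated response element) and CACGTG (an E-box). Fcgr1 held a PU.1 core at −55 to −50, counted from the start site. Fcgr4 held an interferon response core at −73 to −64 and a PU.1 core at −22 to −17. Ly6c2 held a PU.1 core at −108 to −103, and none of these 3 motifs occurred in the Gpnmb window. The bases just after the start site were found in a GENCODE transcript of the gene for Fcgr1 and Fcgr4, but not for Ly6c2 and Gpnmb. The placing of the window is therefore less certain for Ly6c2 and Gpnmb. No capitals overlapped. Of the 33 members with a promoter in the table, 14 held a PU.1 core (42.4%, against 23.1% of 27025 promoters). An interferon response core was in 2 of the 33 (6.06%, against 3.04%) and the E-box in 1 (3.03%, against 6.05%). These are matches of letters, and binding was not measured.

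Lyz2, the lysozyme of monocytes, macrophages and neutrophils, was the most abundant member by far. Per kilobase of exon it had 837 in TBI libraries and 527 in controls, in mean CPM per kilobase, and the next member, the signalling adaptor Tyrobp, had 129 in TBI libraries and 100.2 in controls. Lyz2 (ENSMUSG00000069516, chromosome 10, 117277331 to 117282321, minus strand) measured 1724, 1277, 517 and 887 CPM in TBI 1 to 4, against 843, 602 and 637 CPM in controls 1 to 3. TBI 1, TBI 2 and TBI 4 were above every control and TBI 3 was below every control. Its log2 fold change was 0.67 ± 0.37 (adjusted p = 0.738 in edgeR) and 0.37 without TBI 1. Lyz1, the near-identical copy next to it that intestinal Paneth cells use, measured 3.13, 2.60, 3.42 and 3.53 CPM in TBI 1 to 4, against 2.12, 6.37 and 4.59 CPM in controls 1 to 3, with a log2 fold change of −0.45 ± 0.35 that was −0.79 without control 1 and −0.086 without control 2. Reads shared by the pair make the Lyz1 values uncertain.

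Tyrobp, which encodes the adaptor DAP12 that relays signals from Trem2 and other receptors, measured 136, 95.1, 44.2 and 69.4 CPM in TBI 1 to 4, against 72.7, 69.1 and 58.6 CPM in controls 1 to 3. Fcer1g, the chain that does the same for Fc receptors, measured 126, 101, 48.2 and 66.5 CPM in TBI 1 to 4, against 73.02, 49.99 and 52.7 CPM in controls 1 to 3. Both were above every control in TBI 1 and TBI 2 and lowest of all libraries in TBI 3. The log2 fold changes were 0.37 ± 0.33 and 0.54 ± 0.31, and they were 0.061 and 0.30 without TBI 1. Without TBI 3 that of Tyrobp was 0.59.

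Of the 10 shared phagocyte genes, 4 had estimates below 0 (Csf1r, Cd68, Aif1 and Lyz1) and 6, with Fcgr1 the highest, had estimates above 0. Csf1r, the receptor for the growth factor CSF1 (ENSMUSG00000024621, chromosome 18, 61100598 to 61132149, plus strand), measured 152, 113, 91.1 and 81.3 CPM in TBI 1 to 4, against 130.4, 125 and 102 CPM in controls 1 to 3. TBI 1 was above the controls, TBI 2 within their range, and TBI 3 and TBI 4 below it. The group means were 109 ± 31.5 CPM in TBI libraries (SD, n = 4) and 119 ± 15.03 CPM in controls (SD, n = 3), and the log2 fold change was −0.12 ± 0.22 (adjusted p = 0.881 in edgeR). It was −0.33 without TBI 1 and −0.0045 without TBI 4, the ends of its range with each library left out. Exons of Csf1r overlap those of Hmgxb3 on the opposite strand, which had at most 652 counts. Cd68, a lysosomal glycoprotein of macrophages and osteoclasts, measured 49.4, 37.3, 33.9 and 32.4 CPM in TBI 1 to 4, against 52.4, 48.2 and 41.3 CPM in controls 1 to 3. Only TBI 1 reached the control range, and the log2 fold change was −0.31 ± 0.17 (adjusted p = 0.735 in edgeR). Aif1, the actin-binding protein IBA1, had 4.61 to 9.30 CPM in TBI libraries and 6.59 to 7.72 CPM in controls and a log2 fold change of −0.15 ± 0.24 (−0.38 without TBI 1 and −0.021 without TBI 3). The 10 osteoclast markers, which bone-resorbing cells of the same lineage express, had a median of −0.51 in log2 fold change and a summed level of 1178 to 2001 CPM in TBI libraries and 1466 to 2212 CPM in controls, and their part in the Csf1r and Cd68 values was not tested. TBI 1 was the highest TBI library for all 10 of them, as for Csf1r and Cd68.

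Markers of settled macrophages had estimates on both sides of 0. Adgre1, which encodes the F4/80 antigen, measured 17.8, 14.01, 9.001 and 12.02 CPM in TBI 1 to 4, against 12.95, 11.9 and 11.4 CPM in controls 1 to 3. The TBI libraries lay on both sides of the controls, and the log2 fold change was 0.13 ± 0.22 (adjusted p = 0.877 in edgeR), with −0.047 without TBI 1 and 0.27 without TBI 3. Mrc1, the mannose receptor CD206, which sinusoidal endothelium also carries, measured 36.8, 26.6, 20.4 and 28.1 CPM in TBI 1 to 4, against 30.1, 25.5 and 22.1 CPM in controls 1 to 3, with a log2 fold change of 0.11 ± 0.20 (−0.048 without TBI 1 and 0.24 without TBI 3). Msr1, a scavenger receptor for modified lipoproteins, had 3.90 to 7.52 CPM in TBI libraries and 3.91 to 4.69 CPM in controls and a log2 fold change of 0.39 ± 0.28 (0.22 without TBI 1). Ms4a7, another protein of the MS4A family, was at −0.24 ± 0.26 (−0.39 without TBI 1 and −0.081 without TBI 3), with 2.66 to 5.34 CPM in TBI libraries and 3.97 to 5.79 CPM in controls. Folr2, a folate receptor of tissue macrophages, was at −0.29 ± 0.28 (−0.10 without TBI 1 and −0.48 without TBI 3), with 2.22 to 5.26 CPM in TBI libraries and 4.60 to 4.69 CPM in controls. Only TBI 3 was above the controls for Folr2, and its exons overlap those of Gm10602 on the opposite strand, which had up to 68 counts.

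Siglec1, the sialic acid receptor CD169 of marrow macrophages, which interferon also induces in monocytes (ENSMUSG00000027322, chromosome 2, 131069220 to 131086765, minus strand), had the highest estimate of the 15 tissue macrophage genes. It measured 21.9, 10.3, 5.64 and 7.11 CPM in TBI 1 to 4, against 6.95, 6.93 and 5.68 CPM in controls 1 to 3. TBI 1 was more than 2 times the next library, TBI 2 was above every control, TBI 4 lay slightly above them and TBI 3 below. The log2 fold change was 0.79 ± 0.44 (adjusted p = 0.735 in edgeR), and 0.24 without TBI 1. Its TBI order, 1, 2, 4, 3, was that of the interferon-induced genes, of 13 of 16 neutrophil markers and of Adgre1 and Mertk. The part of interferon-induced genes and of neutrophils in the Siglec1 value was not tested.

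**Figure D4:**
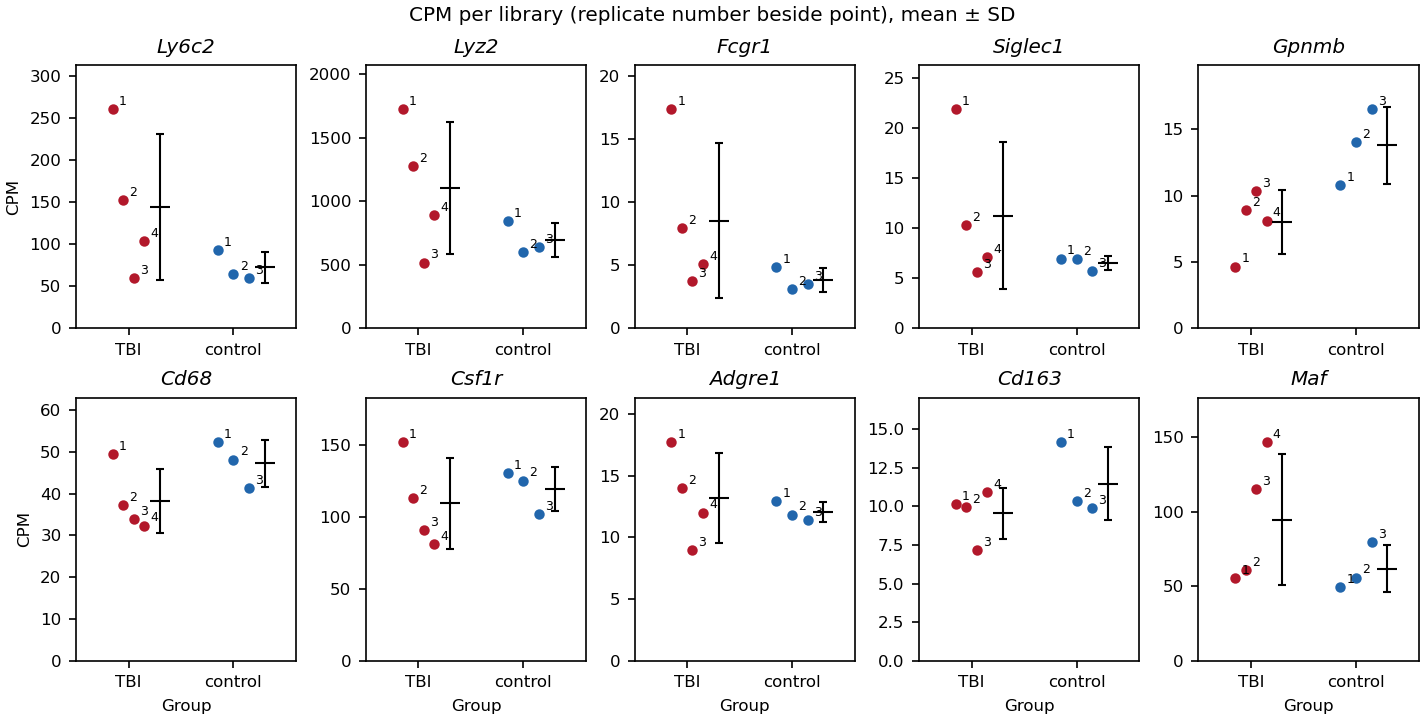
CPM of 10 members per library (points, numbered by replicate) with the mean and SD of each group beside them (TBI, n = 4; control, n = 3). Ly6c2, Lyz2, Fcgr1 and Siglec1 are highest in TBI 1, the Gpnmb points of the groups do not overlap, and Maf is highest in TBI 4.

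The TAM receptors and their ligands let phagocytes recognise dying cells. Mertk, the receptor most used by macrophages, measured 26.5, 21.9, 14.97 and 20.1 CPM in TBI 1 to 4, against 24.6, 18.9 and 14.8 CPM in controls 1 to 3, with a log2 fold change of 0.11 ± 0.23 (−0.059 to 0.32 with each library left out). Axl, a relative that stromal and endothelial cells also express, measured 82.4, 74.8, 82.5 and 79.05 CPM in TBI 1 to 4, against 75.3, 84.1 and 98.4 CPM in controls 1 to 3, with a log2 fold change of −0.11 ± 0.12 (−0.20 to −0.00070 likewise). Gas6, their secreted ligand, had 149 to 171 CPM in TBI libraries and 171 to 184 CPM in controls and a log2 fold change of −0.16 ± 0.11. Groups overlapped for all 3. Tyro3, the remaining receptor of the family, is not among the 40 and measured 1.30, 1.23, 1.84 and 1.90 CPM in TBI 1 to 4, against 2.66, 2.14 and 2.76 CPM in controls 1 to 3. Every TBI library lay below every control, as in 5.38% of all genes tested, and the log2 fold change was −0.69 ± 0.26 (adjusted p = 0.633 in edgeR).

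Of 17 further ligands and partners of the members' receptors and factors, 9 had a higher and 8 a lower estimate, 4 of them lower at an unadjusted p under 0.05 in edgeR and 0 higher, against 4.97% lower and 2.37% higher over all genes tested. Besides Tyro3 these were Lrp1, a large endocytic receptor of macrophages and many stromal cells, Mfge8, a bridge between dying cells and integrins, and Nr4a2, a relative of Nr4a1. Lrp1 measured 247, 291, 283 and 216 CPM in TBI 1 to 4, against 319, 362 and 355 CPM in controls 1 to 3, with no overlap between groups and a log2 fold change of −0.41 ± 0.15 (adjusted p = 0.609). The log2 fold change of Mfge8 was −0.47 ± 0.19 (adjusted p = 0.664) and that of Nr4a2 −0.50 ± 0.22 (adjusted p = 0.677), both in edgeR with overlapping groups. Csf1, the ligand of Csf1r, was chosen for that role after its values were seen and was at −0.33 ± 0.18, with 43.8 to 65.4 CPM in TBI libraries and 51.9 to 78.5 CPM in controls. The 8 bone and stromal markers, which include Col1a1 and Cxcl12, had a median of −0.69 in log2 fold change and a summed level of 10701 to 14775 CPM in TBI libraries and 15841 to 27197 CPM in controls, and their part in these ligand values was not tested.

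Gpnmb, a transmembrane glycoprotein of lipid-laden macrophages that osteoclasts and osteoblasts also make (ENSMUSG00000029816, chromosome 6, 49036546 to 49070929, plus strand), was the only one of 39 members whose groups did not overlap, as they did not for 8.04% of all genes tested. It measured 4.65, 8.90, 10.4 and 8.12 CPM in TBI 1 to 4, against 10.8, 14.1 and 16.5 CPM in controls 1 to 3. The highest TBI library, TBI 3, was just below the lowest control, control 1, and TBI 1 was the lowest. The group means were 8.005 ± 2.42 CPM in TBI libraries (SD, n = 4) and 13.8 ± 2.88 CPM in controls (SD, n = 3), and the log2 fold change was −0.79 ± 0.27 (adjusted p = 0.596 in edgeR). With each library left out in turn it ran from −0.94 to −0.60. Across all genes tested, 5.38% had every TBI library below every control, so 1 of 39 members is no more than that share. The bone and stromal markers and the osteoclast markers given above had medians below 0, and their part in the Gpnmb value was not tested.

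The other genes of lipid-handling macrophages were nearer to 0. Trem2, a receptor for lipids and lipoproteins that signals through Tyrobp and is also needed in osteoclasts, measured 6.43, 6.77, 4.50 and 3.58 CPM in TBI 1 to 4, against 4.11, 5.86 and 4.54 CPM in controls 1 to 3, with a log2 fold change of 0.15 ± 0.27 (−0.0051 to 0.30 with each library left out). Apoe, the lipoprotein component that macrophages and stromal cells secrete, had 166 to 239.6 CPM in TBI libraries and 171 to 186 CPM in controls and a log2 fold change of 0.15 ± 0.15 (0.048 without TBI 1). Lgmn, a lysosomal protease, had 53.8 to 70.9 CPM in TBI libraries and 65.98 to 69.7 CPM in controls and a log2 fold change of −0.15 ± 0.12 (−0.23 without TBI 1 and −0.091 without TBI 4). Pltp, which transfers phospholipids between lipoproteins, measured 32.7, 37.5, 41.8 and 28.8 CPM in TBI 1 to 4, against 38.1, 43.4 and 49.5 CPM in controls 1 to 3, and its log2 fold change was −0.31 ± 0.15 (adjusted p = 0.714 in edgeR). Exons of Pltp overlap those of the lysosomal gene Ctsa on the opposite strand, which had up to 3425 counts, so the Pltp value is uncertain where strand was not used in counting.

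Maf, a transcription factor of tissue macrophages that other cells also use, measured 55.6, 61.05, 116 and 147 CPM in TBI 1 to 4, against 49.7, 55.9 and 79.97 CPM in controls 1 to 3. TBI 3 and TBI 4 were above every control, and control 3 was the highest control. The log2 fold change was 0.62 ± 0.35 (adjusted p = 0.748 in edgeR), and 0.32 without TBI 4. Nr1h3, read with the red-pulp-like genes, encodes the oxysterol receptor LXR-alpha, which marginal zone macrophages need and fat and muscle also express, and measured 9.56, 11.4, 16.6 and 14.8 CPM in TBI 1 to 4, against 7.49, 10.2 and 11.9 CPM in controls 1 to 3. It too was highest in TBI 3 and TBI 4 and, among controls, in control 3, with a log2 fold change of 0.41 ± 0.24 (0.24 without control 1). Those 3 libraries were also the highest in muscle markers, and the 6 fat markers were highest in TBI 3 and TBI 4, with a summed level of 253, 268, 659.9 and 463 CPM in TBI 1 to 4, against 233, 243 and 338 CPM in controls 1 to 3. The part of muscle and fat RNA in the Maf and Nr1h3 values was not tested.

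Red-pulp-like macrophage genes were present at low levels and gave no common direction. Spic, the transcription factor that iron-recycling macrophages need (ENSMUSG00000004359, chromosome 10, 88674772 to 88685015, minus strand), measured 6.13, 6.94, 3.74 and 5.16 CPM in TBI 1 to 4, against 7.99, 4.85 and 4.74 CPM in controls 1 to 3. Control 1 was the highest library and TBI 3 the lowest, and the log2 fold change was −0.095 ± 0.28 (adjusted p = 0.938 in edgeR), with 0.20 without control 1 and −0.24 without TBI 2. Cd163, the receptor that takes up haptoglobin-bound haemoglobin (ENSMUSG00000008845, chromosome 6, 124304656 to 124330527, plus strand), measured 10.1, 9.96, 7.16 and 10.9 CPM in TBI 1 to 4, against 14.2, 10.3 and 9.85 CPM in controls 1 to 3. TBI 3 was below every control and the other TBI libraries were at or near the 2 lower controls, with a log2 fold change of −0.27 ± 0.20 (adjusted p = 0.768) that was −0.081 without control 1 and −0.15 without TBI 3. Cd5l, a scavenger protein secreted by macrophages under the control of LXR, measured 7.04, 8.22, 3.20 and 5.38 CPM in TBI 1 to 4, against 7.27, 4.22 and 4.54 CPM in controls 1 to 3, with a log2 fold change of 0.16 ± 0.34 (−0.046 to 0.45 with each library left out). TBI 3 was the lowest library for these 3 genes.

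Timd4, a receptor for phosphatidylserine on long-lived resident macrophages, measured 1.22, 0.724, 0.651 and 1.05 CPM in TBI 1 to 4, against 0.948, 1.07 and 1.25 CPM in controls 1 to 3, from 12 to 28 counts per library, with a log2 fold change of −0.25 ± 0.33 (−0.43 to −0.13 with each library left out). Marco, a scavenger receptor of marginal zone macrophages, did not pass the filter and had 4, 5, 3 and 5 counts in TBI 1 to 4, against 9, 0 and 0 counts in controls 1 to 3. It was therefore not tested, and with 3 to 9 counts in the libraries that had any it gives no fold change. Spic, Cd163, Cd5l and Timd4 were detected in all 7 libraries, while Marco was at or near 0.

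Outside the 40 genes, 16 other monocyte genes, among them Ccr2, had a median of 0.45 in log2 fold change, and 15 of the 16 had a higher estimate. The order TBI 1, 2, 4, 3 held for 15 of the 16, against 11.0% of all genes tested. Neutrophils express several of these genes too, and the 16 neutrophil markers had a median of 0.97 in log2 fold change, with 15 of 16 higher and 13 of 16 in that order. Their part in the values of the other monocyte genes was not tested. A list of 20 other tissue macrophage genes had a median of 0.054, with 12 higher and 8 lower, and 0 had an unadjusted p under 0.05 in edgeR. The difference between these lists was not tested. The smallest p on that list belonged to Pparg, a lipid-sensing nuclear receptor of macrophages and fat cells, which measured 8.65, 8.22, 10.9 and 9.96 CPM in TBI 1 to 4, against 7.81, 7.12 and 7.14 CPM in controls 1 to 3. Every TBI library was above every control, as in 2.66% of all genes tested, with a log2 fold change of 0.36 ± 0.16 (adjusted p = 0.683). Il18bp, a secreted inhibitor of interleukin 18 that interferon induces, was next at 0.71 ± 0.37 (adjusted p = 0.726). The fat markers had a median log2 fold change of 1.06, and their part in the Pparg value was not tested.

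Dendritic cells share many myeloid genes, and their 8 markers had a summed level of 79.3 to 159 CPM in TBI libraries and 92.2 to 123 CPM in controls, with a median log2 fold change of 0.17 over the 7 tested, and Xcr1 at 0 to 0.478 CPM across libraries. Erythroid markers, whose cells mature on Cd163-positive macrophages, summed to 23139 to 32518 CPM in TBI libraries and 44719 to 51397 CPM in controls, with no overlap between groups. B cell markers summed to 62.1 to 197 CPM in TBI libraries and 163 to 275 CPM in controls, and T and NK cell markers to 9.001 to 33.6 CPM in TBI libraries and 13.8 to 17.9 CPM in controls. Markers of eosinophils, basophils and mast cells, some of which use Fcer1g, summed to 20.6 to 58.9 CPM in TBI libraries and 23.98 to 34.8 CPM in controls, and endothelial markers, whose cells can express Mrc1 and Axl, to 278 to 404 CPM in TBI libraries and 266 to 338 CPM in controls. None of these sums was tested against the member values.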

How the data were processed

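The authors deposited raw counts per Ensembl gene and a table of normalized values on a log2-like scale, whose exact transform is not stated. The submitters' processing notes name STAR, DESeq and GRCm38, and libraries came from a stranded mRNA kit per the labels. Not given in the sources used here: the counting tool, its use of strand and how it treated multi-mapping reads. GENCODE M21 (GRCm38) supplied symbols, coordinates and exon lengths and matched 49412 of 49671 identifiers (99.5%). Counts were filtered with filterByExpr (17144 genes left, Marco not among them), scaled by TMM and tested with edgeR 4.0.16 in R 4.3.3 (glmQLFit, glmQLFTest), with Benjamini-Hochberg adjustment over all genes tested and a threshold of 0.05. The SE is the estimate divided by the root of its F statistic. Log2 CPM used a prior count of 2, and per-kilobase levels used the union of exons. Depth was 15461528 to 21783534 counts, so that 3 counts equal 0.138 to 0.194 CPM before TMM scaling. Limma 3.58.1 and DESeq2 1.42.0 (no adjusted p for 12888 genes) served as alternatives, and the procedure was tested on simulated data. No 2 libraries of a group were alike within sampling noise (chi-square per degree of freedom of 27.2 or more).

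The members, roles, marker lists and named genes were chosen with earlier results of these data known. All 40 members are given. Values are in full for members with an unadjusted p under 0.05 and for a fixed set of lineage genes, and of the pathway lists the genes with the smallest p. Csf1, Ly6c1 and the markers named as examples of a list were chosen outside that rule. The deposited log2 values were used only as a check: their TBI minus control difference had the same sign as the edgeR estimate for all 39 tested members (median absolute difference 0.0559, largest 0.49). The promoter sequences are RefSeq's. A further promoter motif that was searched is not reported here.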

Additional observations from a re-analysis of the deposited data

How the results depend on the processing

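Each value was recomputed under 19 alternatives, and no setting called a member. Of 740 recomputed member estimates, 698 kept their direction and 42 changed it, and 23 of the 39 tested members never changed direction. Setting by setting, the calls over all genes tested stayed at 0 except in DESeq2 (84). RLE and upper-quartile scaling, no filter, a filter of 1 CPM in 3 libraries, DESeq2 and limma-voom turned no member. Under limma-voom with sample quality weights the red-pulp-like median was 0.16, Cd14 0.18, Klf4 0.0034 and Spic 0.16. With the neutrophil marker mean as a covariate the median of all tested members was −0.17, of shared phagocyte genes −0.19, of tissue macrophage genes −0.15 and of red-pulp-like genes −0.40. There Tyrobp was at −0.19, Fcgr2b −0.19, Fcgr3 −0.046, Adgre1 −0.18, Mertk −0.18, Mrc1 −0.15 and Cd5l −0.31. With the interferon-induced mean as a covariate the medians were −0.14 (shared), −0.12 (tissue macrophage) and −0.29 (red-pulp-like), with Tyrobp at −0.17, Fcgr2b −0.10, Adgre1 −0.17, Mertk −0.13, Mrc1 −0.12, Trem2 −0.073 and Cd5l −0.16. With the muscle marker mean as a covariate the tissue macrophage median was 0.21, Csf1r 0.021, Cd300e 0.088 and Spic 0.089. In that fit 13 members were higher and 2 lower at an unadjusted p under 0.05, where 16.2% of all genes passed it, and the lowest adjusted p of a member was 0.064. Without TBI 3 and TBI 4 together, the libraries highest in muscle mRNA, the tissue macrophage median was −0.066, Cd14 0.11, Nr4a1 −0.23, Cd300e 0.64, Csf1r 0.13, Aif1 0.071, Maf −0.11 and Spic 0.13. With each library left out in turn, the tissue macrophage median ran from −0.048 to 0.16 and the red-pulp-like median from −0.21 to 0.20. The estimates ran from −0.32 to 0.21 for Cd14, −0.84 to 0.26 for Cd300e, −0.047 to 0.27 for Adgre1, −0.059 to 0.32 for Mertk, −0.048 to 0.24 for Mrc1, −0.0051 to 0.30 for Trem2, −0.24 to 0.20 for Spic and −0.046 to 0.45 for Cd5l. Without TBI 3, 10 members were higher and 2 lower at an unadjusted p under 0.05, where 8.98% of all genes passed it. Across all settings 0 to 13 members were higher and 0 to 5 lower at that level. The causes of these shifts were not tested. Libraries with the same replicate number deviated together for numbers 1 and 3 but not 2 (correlations of 0.549, 0.322 and −0.0277 over genes). Muscle markers were low in both libraries of number 1, high in both of number 3 and near the control mean in both of number 2. The correlations therefore cannot decide whether the numbers pair libraries, and the main fit did not pair them. With the replicate block, 10 members were higher and 1 lower at an unadjusted p under 0.05, where 11.1% of all genes passed it, 0 members and 0 genes were called, and Cd14 was at 0.080 and Cd300e at 0.14. Depth limits the values of Marco, Cd300e and Timd4, which had under 35 counts per library.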
